A study of Mus musculus with 2 samples.

Results

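CD8 T cells outside cell cycle were the 832 cells of CT26 tumors, among 14777 cell barcodes in 2 libraries, that carried the RNA of a CD8 T cell and little RNA of proliferation. The cells were chosen by measured values. A barcode was a member when under 20% of its unique molecular identifiers (UMIs, 1 per captured RNA molecule) were mitochondrial, when it held at least 2 UMIs of Cd3d, Cd3e and Cd3g together (the CD3 chains of the T cell receptor complex) and when it held at least 1 UMI of Cd8a and Cd8b1 together (the CD8 co-receptor). Each member also had under 5 UMIs per 10000 of the complement genes C1qa, C1qb and C1qc, under 20 per 10000 of the myeloid lysozyme Lyz2, and under 10 per 10000 of 6 cell cycle genes (Mki67, Top2a, Birc5, Ube2c, Pclaf and Nusap1). The rule gave 305 of 7556 barcodes in the library of untreated tumors (UT) and 527 of 7221 in the library of tumors treated with BUP-Gel (BUP).

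CT26 is a colon carcinoma line of BALB/c mice, grown here under the flank skin of male BALB/c mice 6 to 8 weeks old. BUP-Gel is a hydrogel loaded with bupivacaine, a local anesthetic that blocks voltage-gated sodium channels, and the UT mice received nothing. Live CD45+ (hematopoietic) and CD45- cells were sorted from 3 pooled tumors per condition and mixed at 4 parts to 1 part per the labels, before 5' single-cell RNA sequencing. There was therefore 1 library per condition, no replicate and no test between conditions. Values below are compared between 2 libraries, and differences between mice, tumors, preparations and treatment cannot be told apart.

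CD8 T cells recognize peptides presented by MHC class I through a T cell receptor, a pair of alpha and beta chains whose variable (V) segments are fixed for a cell and its progeny. On recognition they kill by releasing perforin and granzymes and secrete interferon gamma and chemokines. In tumors, cells that meet antigen for a long time keep inhibitory receptors such as PD-1 (Pdcd1), LAG-3 (Lag3) and TIM-3 (Havcr2) and the transcription factor TOX (Tox). A smaller pool with TCF-1 (Tcf7) is known as the source from which such cells are renewed.

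Of the barcodes, 7163 in UT and 6776 in BUP passed the mitochondrial limit. Members had medians of 7041 UMIs and 2647 genes in UT and 6464 UMIs and 2409 genes in BUP. The same 76 cell barcodes occurred in both libraries, among them those of 1 UT member and 6 BUP members, and no barcode was a member in both. Levels are given as CPM, the UMIs of a gene summed over the members and scaled to 1000000 summed UMIs, with exact 95% Poisson intervals where stated. These and all other intervals cover counting error only. CPM was not divided by gene length and is compared here between cells and libraries, not between genes.

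The markers that defined the cells were present, as the rule required for CD3 and CD8. Cd8a stood at 825 and 700.5 CPM in UT and BUP, in that order here and below, Cd8b1 at 785 and 645 CPM and Cd3e at 1203 and 1104 CPM. Pdcd1 and Cxcr6, a chemokine receptor of tissue T cells, were not part of the rule. In members thinned to 2000 randomly drawn UMIs per cell, a Pdcd1 UMI was found in 55.1% of UT and 53.6% of BUP members, against 0.235% and 0.158% of cells with no UMI of Ptprc (the gene of CD45). For Cxcr6 the shares were 57.1% and 52.8% of members against 0.0784% and 0.0396% of those cells. Thinning left out 2 UT and 18 BUP members with under 2000 UMIs. In 276 of 305 UT and 493 of 527 BUP members there was no UMI of Cd4, Foxp3 (regulatory T cells), Trdc (gamma-delta T cells) or Ncr1 (NK cells).

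Few members lay at the CD3 limit and more at the others. With 2 CD3 UMIs there were 1 UT and 6 BUP members, and 10 further barcodes in each library missed the limit by 1 UMI. With exactly 1 CD8 UMI there were 8 and 27 members, while 118 UT and 94 BUP barcodes had CD3 but no CD8 UMI. For C1q, 51 UT and 47 BUP members lay in the upper part of the allowed range (2.5 to 5 per 10000), and 25 and 17 barcodes lay above it at 5 to 7.5. For Lyz2 (10 to 20 and 20 to 30 per 10000) these were 25 and 13 members inside and 11 and 7 barcodes outside, and for the cell cycle genes (5 to 10 and 10 to 15 per 10000) 24 and 28 inside and 21 and 17 outside.

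RNA of other cell types was present in most members, mainly at low levels. A UMI of the macrophage list was found in 94.4% of UT and 76.7% of BUP members. A UMI of the dendritic cell list was found in 60% and 40.6%. Of 305 UT members 74 (24.3%), and of 527 BUP members 82 (15.6%), held at least 10 UMIs per 10000 of a marker list of another type. Here and below, only cells at or over this limit are said to hold other-type RNA. Macrophage genes accounted for 61 UT and 42 BUP members, neutrophil genes for 17 and 18, dendritic cell genes for 12 and 18, and tumor, fibroblast and endothelial genes together for 5 and 26. The summed macrophage and monocyte list had 1175 CPM in UT members against 789 CPM in BUP members, and the fibroblast list 88 and 263 CPM. In BUP the cells with such RNA were deeper, with a median of 11982 UMIs against 6140 in the remaining 445, whereas in UT they had 6152 against 7305 in the remaining 231. Of the members, 20 in UT and 46 in BUP were among the 375 UT and 365 BUP kept cells whose doublet score was above the top 6% limit (cells tied at the limit were not counted), and 18 and 37 of them held such RNA. Its source in the other cells was not tested. Main ratios are therefore also given for the 231 UT and 445 BUP members under the limit, a choice made after the values were seen. These are called members without other-type RNA, though they may still hold some of it.

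CD8 T cells outside cell cycle were the largest class of gated T cells in both libraries. They made up 54.2% (49.96 to 58.3) of 563 gated T cells in UT and 60.9% (57.6 to 64.2) of 865 in BUP, and the intervals overlap. Cycling CD8 T cells, which met every limit except the last, were 28.1% (23.8 to 32.6) of 424 gated CD8 T cells in UT and 29.7% (26.5 to 33.1) of 750 in BUP. T cells outside cell cycle without a CD8 UMI were 21% (17.7 to 24.6) of gated T cells in UT and 10.9% (8.87 to 13.1) in BUP, intervals that do not overlap. This class also held NK cell RNA, with Ncr1 at 539 and 259 CPM against 793 and 765 CPM in NK cells, so not all of it need be T cells. Without cells that held a Cd4, Foxp3, Trdc or Ncr1 UMI, members were 64.9% of gated T cells in UT and 66.2% in BUP.

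Against wider denominators the members took a larger share of the BUP library. They were 4.26% (3.8 to 4.75) of all kept cells in UT and 7.78% (7.15 to 8.44) in BUP. Of cells with a Ptprc UMI they were 5.61% (5.01 to 6.27) and 13.1% (12 to 14.2). NK cells were 4.82% (4.26 to 5.43) and 5.65% (4.94 to 6.43) of the same cells. CD45+ and CD45- cells were mixed after the sort, and cells without a Ptprc UMI made up 24.2% of the UT and 42% of the BUP library. Mixing and tumor makeup cannot be told apart in shares of all kept cells.

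Granzymes and perforin were prominent RNAs of the members in both libraries. Granzyme B (Gzmb), the caspase-activating protease of killer cells, stood at 1875 CPM (1822 to 1928) in UT and 1309 CPM (1275 to 1344) in BUP. Granzyme F (Gzmf) reached 3298 CPM (3229 to 3369) and 3202 CPM (3149 to 3256). Gzmd had 2071 and 1448 CPM, Gzme 1124 and 808 CPM, Gzmc 739 and 415 CPM and Gzmg 791 and 321 CPM. These 6 genes lie side by side on the minus strand of chromosome 14 (GRCm39, 56355083 at the end of Gzme to 56499717 at the start of Gzmb) and are similar in sequence, so reads may have been split or lost between them. Perforin (Prf1), which opens the target membrane, had 1588 and 1278 CPM, and Nkg7, a protein of cytotoxic granules, 2538 and 2392 CPM. Granzyme A (Gzma) and granzyme K (Gzmk), on chromosome 13, stood at 144 and 36 CPM and at 57.9 and 87.1 CPM.

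Several of these sums rested on few cells. A single UT member with 41327 UMIs, of which 5 were of Ncr1, held 64% of all Gzmg UMIs and 52.3% of all Gzmc UMIs of the UT members. The same cell held 19.3% of Gzmd, 12.1% of Gzme, 11% of Gzmf and 8.44% of Gzmb. For Gzma, the 5 cells with most UMIs held 85.3% of the UT and 84.1% of the BUP total, and all 5 in UT and 2 in BUP had Ncr1 UMIs. Gzmb and Prf1 were spread more evenly, with 25.7% and 13.4% of UT UMIs in the top 5 cells.

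**Figure D1:**
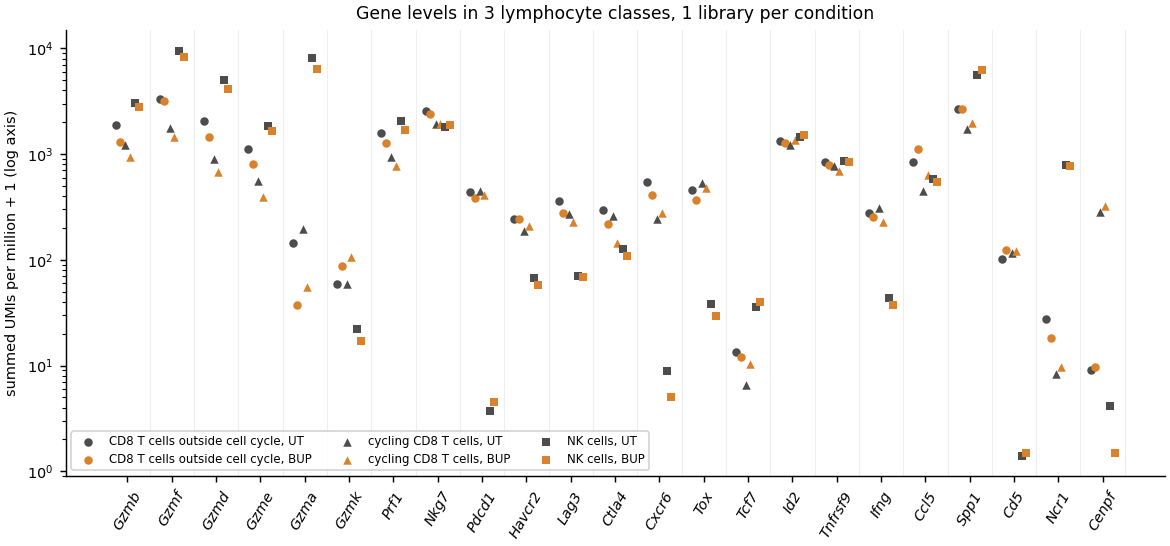
Level of 23 genes (CPM + 1, log axis) in CD8 T cells outside cell cycle, cycling CD8 T cells and NK cells, with 1 point per library and no replicates. Pdcd1 stood at 437 and 382 CPM in the members and at 2.76 and 3.5 CPM in NK cells, while Gzma was lower in both T cell classes than in NK cells.

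Granzymes C to G were found together in the same members. Among members thinned to 2000 UMIs, 125 of 303 in UT and 235 of 509 in BUP held a Gzmf UMI. Gzmd was found in 63.2% of the UT cells with Gzmf and in 9.55% of those without, and in 68.5% and 8.76% in BUP. The same shares were 55.2% and 8.99% for Gzme in UT, with 63% and 9.85% in BUP. Gzmc was found in 40.8% and 3.93% in UT and in 36.2% and 2.92% in BUP. Gzmb differed less between the cells, at 84% with and 62.9% without Gzmf in UT and 89.8% and 63.1% in BUP. Gzmk was about as frequent with Gzmf (10.4% and 14%) as without it (14.6% and 15%).

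The shares of members in which none or all of these 5 granzymes were found overlapped between the libraries within their intervals. None of Gzmc, Gzmd, Gzme, Gzmf and Gzmg was found in 47.5% (41.8 to 53.3) of UT and 45.8% (41.4 to 50.2) of BUP members, and all 5 in 4.29% (2.30 to 7.23) and 5.30% (3.52 to 7.62). In cells with no Ptprc UMI, a Gzmf UMI was found in 2.98% in UT and 0.515% in BUP.

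**Figure D2:**
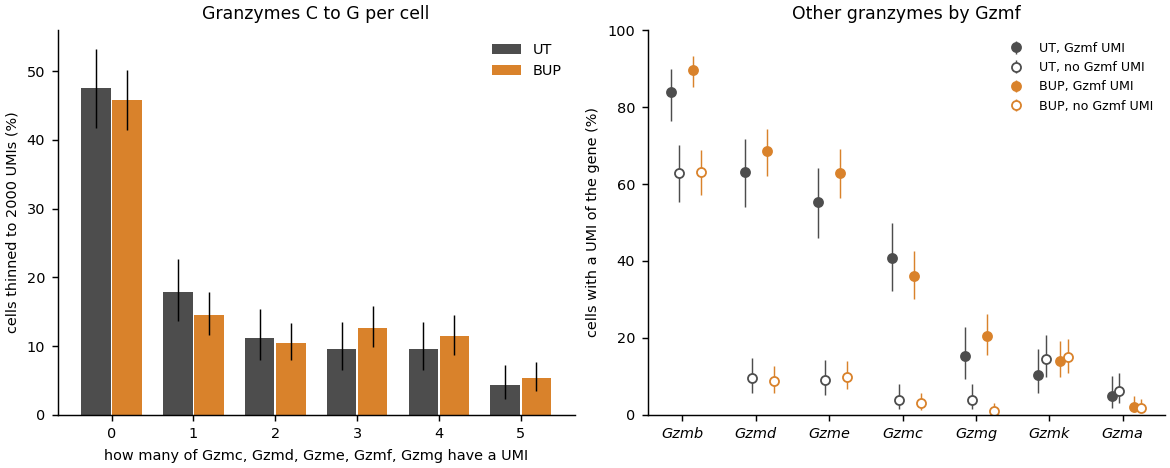
Left, percent of thinned members (y axis) by the number of granzymes C to G with a UMI (x axis), per library with exact binomial intervals. Right, percent of cells with another granzyme, split by a Gzmf UMI; Gzmd, Gzme and Gzmc were found mostly in cells with Gzmf, whereas Gzmk was about equal in both.

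Several other RNAs differed between cells with and without Gzmf in the same direction in both libraries. Members with a Gzmf UMI had more Prf1 (1964 against 1008 CPM in UT and 1894 against 879.6 CPM in BUP), more Havcr2 (364 against 166 CPM in UT and 332 against 172 CPM in BUP) and more Serpinb9b, a serpin protease inhibitor (696 against 216 CPM in UT and 909 against 411 CPM in BUP). Members without Gzmf had more of the chemokine Ccl5, at 1489 against 604 CPM in UT and 1931 against 1034 CPM in BUP. They also had more of the dendritic cell attractant Xcl1, at 42.1 against 8.0 CPM and 111 against 2.13 CPM. Pdcd1 did not keep 1 direction, at 448 against 492 CPM in UT and 523 against 438 CPM in BUP. Cells were split by a measured UMI, so these values describe the split and carry no test.

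Inhibitory receptors were found in most members. Pdcd1 stood at 437 CPM (412 to 463) in UT and 382 CPM (364 to 401) in BUP, and Lag3, which binds MHC class II, at 358 and 279 CPM. TIGIT (Tigit) had 239 and 209.8 CPM, CTLA-4 (Ctla4) 292 and 219 CPM, Havcr2 243 and 244 CPM, and the ectonucleotidase CD39 (Entpd1) 181 and 167 CPM. Without thinning, a Pdcd1 UMI was present in 85.2% of UT and 81.8% of BUP members, a Lag3 UMI in 86.6% and 77.8%, and a Havcr2 UMI in 57.7% and 64.3%. Among costimulatory receptors, 4-1BB (Tnfrsf9), a receptor of recently stimulated T cells, stood at 839 and 780.0 CPM, OX40 (Tnfrsf4) at 133 and 59.4 CPM and CD27 (Cd27) at 154 and 124 CPM.

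Members held RNA of transcription factors of stimulated and resident T cells and little of those of naive cells. Id2, which opposes E proteins in effector cells, stood at 1326 and 1273 CPM, Irf8 at 474 and 538 CPM, the orphan nuclear receptor Nr4a2 at 425 and 423 CPM and Tox at 455 and 368 CPM. Bhlhe40, a factor of tissue-resident T cells, had 653 and 785 CPM. Tcf7 stood at 12.3 and 11 CPM, its partner Lef1 at 20.1 and 13.1 CPM and Bach2, a repressor that holds cells in a less differentiated state, at 86.4 and 42.6 CPM. The lymph node homing receptor Ccr7 had 85.3 and 91 CPM, and the IL-7 receptor (Il7r) had 66.7 and 43.3 CPM.

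Of the secreted factors, the chemokines Ccl4 and Ccl5 stood at 803 and 836 CPM, and 846 and 1128 CPM, Ccl3 at 489.6 and 289 CPM, and interferon gamma (Ifng) at 276 and 253 CPM. Tumor necrosis factor (Tnf) had 62.9 and 79.1 CPM and Il2 1.16 and 0 CPM. Ccl3 sums rested on few cells, with 46.6% and 51.6% of UMIs in the top 5. Spp1 (osteopontin) stood at 2651 and 2694 CPM, and a thinned UMI of it was found in 72.3% and 71.7% of members. Cells with no Ptprc UMI held one in 91.4% and 93.9%, above the share in members. Its level was not alike among members, with 2584 and 2629.8 CPM in thinned cells with a Gzmf UMI and 1374 and 1385 CPM in cells without. The part of RNA from other cells in these values was not tested.

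Cells with Tcf7 were few, and few or none held both Tcf7 and Havcr2. After thinning, a Havcr2 UMI without a Tcf7 UMI was found in 97 of 303 UT members, or 32% (26.8 to 37.6), and in 177 of 509 BUP members, or 34.8% (30.6 to 39.1). Tcf7 without Havcr2 was found in 10 of 303 UT members, or 3.3% (1.59 to 5.99), and in 9 of 509 BUP members, or 1.77% (0.812 to 3.33). Of the 10 and 9 cells with Tcf7, 4 and 2 held RNA of other types, and without such members the shares were 2.62% (0.967 to 5.62) of 229 in UT and 1.62% (0.654 to 3.31) of 432 in BUP. No member had both, which allows up to 0.99% of 303 UT and 0.589% of 509 BUP members. Havcr2 UMIs were found in 2.35% and 0.951% of cells without Ptprc at the same depth, and Tcf7 UMIs in 0.235% and 0.158%. These counts depend on the UMIs drawn. A second random draw gave Tcf7 without Havcr2 in 8 UT and 7 BUP members and both in 0 and 3, and without thinning these were 12 and 15, and 1 and 7. The intervals of both shares overlap between the libraries. A UMI missed at 2000 UMIs per cell does not show that a cell lacks the gene.

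The few cells with Tcf7 carried more RNA of naive and central memory T cells and less cytotoxic RNA than cells with Havcr2 in both libraries. Klf2, a factor of T cell recirculation, was at 1050 CPM in those of UT and 944 CPM in those of BUP, against 232 and 129.9 CPM in cells with Havcr2. Ccr7 stood at 450 and 1333 CPM against 41.2 and 25.4 CPM. Prf1 stood at 300 and 0 CPM in cells with Tcf7 against 2222 and 1644 CPM in cells with Havcr2, and Gzmf at 100 and 0 against 3959 and 4825 CPM. Cells with Tcf7 held 50 and 333 CPM of Pdcd1. Slamf6, a receptor used to mark progenitor exhausted cells, had 50 and 167 CPM. With 10 and 9 cells thinned to 2000 UMIs each, 1 UMI was worth 50 CPM in UT and 55.6 CPM in BUP. In the 6 UT and 7 BUP cells with Tcf7 under the limit for other-type RNA, Klf2 stood at 500 and 929 CPM. Ccr7 stood at 583 and 857 CPM and Prf1 at 417 and 0 CPM.

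Cells with Havcr2 had more Gzmb, Prf1 and Entpd1 than cells with neither RNA in both libraries. In UT, cells with Havcr2 had 2722 CPM of Gzmb and 2222 CPM of Prf1, against 1186 and 1054 CPM in cells with neither. In BUP these were 1554 and 1644 CPM against 1291 and 1223 CPM. Entpd1 was 335 against 119.9 CPM in UT and 229 against 163 CPM in BUP. Tox differed less, at 613 against 518 CPM in UT and 483 against 416 CPM in BUP. No interval is given for these levels, and no difference was tested.

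Compared with cycling CD8 T cells of the same library, the members had more granzyme C to G RNA as CPM. The largest ratios among genes at 100 CPM or more were those of Gzmg, Gzmc, S100a9, Gzmd, Gzme, S100a8, Cd63, Gzmf, Ifitm2, Isg15, Ier3 and Ccl5. Gzmg and Gzmc leaned on few cells. A single UT member held 64% and 52.3% of their UT sums, and the top 5 BUP members held 55.8% and 32.6% of their BUP sums. Gzmf stood at 1751 and 1457 CPM in cycling cells of UT and BUP against 3298 and 3202 CPM in the members, and Gzmd at 889 and 679 CPM against 2071 and 1448 CPM. Ccl5 was 448 and 627 CPM in cycling cells against 846 and 1128 CPM in all members and 828 and 1215 CPM in members without other-type RNA. The calgranulins S100a8 and S100a9 are neutrophil RNAs. S100a9 stood at 581 and 367 CPM in all members and at 13 and 10.1 CPM in members without other-type RNA. In members without other-type RNA, Cd63 stood at 64.8 and 82.1 CPM and Ier3 at 112 and 87.1 CPM. In all cycling cells these were 80.9 and 108 CPM, and 137 and 107 CPM. In BUP, Ifitm2 and Isg15 stood at 213 and 59.4 CPM in such members against 214 and 57.9 CPM in all cycling cells. Cycling cells were not filtered for other-type RNA and held 206 and 161 CPM of S100a9. Values of filtered members against unfiltered cycling cells therefore do not show which class holds more. Pdcd1 was 443 and 405 CPM in cycling cells against 437 and 382 CPM. The genes lowest against cycling cells, led by Cenpf and Ccna2 and including Hmmr, Ckap2l, H1f5, Knl1, Aspm, Kif4, Cdca3, Kif23, Kif11 and Rrm2, act mostly in mitosis and DNA synthesis and follow from the rule.

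Compared with NK cells (kept cells under the same C1q, Lyz2 and cell cycle limits with no CD3 UMI and at least 2 UMIs of the NK receptors Ncr1 and Klrb1c), the members shared the granzyme C to G cluster at lower levels and differed in T cell and NK receptors. Gzmf stood at 9534 and 8341 CPM in NK cells of UT and BUP, above the 3298 and 3202 CPM of the members, and Gzma at 8062 and 6391 CPM against 144 and 36 CPM. Ncr1, Klrb1f, Clnk, Klrg1, Car2, Ctsg, Klra7, Tyrobp, Klra3, Klrb1a and Ccr2 completed the 12 genes lowest in the members. Tyrobp, the adaptor of activating NK receptors, stood at 179 and 162 CPM in members and 2001 and 2380.4 CPM in NK cells. Pdcd1 was at 437 and 382 CPM in members and 2.76 and 3.5 CPM in NK cells. Besides Pdcd1, the genes highest over NK cells were Klrh1, Nrn1, Cd6, Cd5, Themis, Penk, Galnt18, Cxcr6, Gldc, Filip1 and Tox. Cd5 and Cd6, dampers of T cell receptor signals, stood at 102 and 123 CPM (Cd5) and 118 and 124 CPM (Cd6) in members. In NK cells they stood at 0.394 and 0.50 CPM and at 0.394 and 0 CPM. The neuropeptide precursor Penk (proenkephalin) had 252 and 121 CPM against 2.36 and 0 CPM, and Tox 455 and 368 CPM against 37 and 28.5 CPM.

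Against all other kept cells, the 15 genes with the largest ratios in both libraries were Cxcr6, Galnt18, Ifng, Pdcd1, Nrn1, Klrh1, Filip1, Lat, Cd6, Lag3, Themis, Abcb9, Cd5, Penk and Cd27. Cxcr6 stood at 538 and 410.0 CPM in the members and 17.8 and 22 CPM in the rest, and Ifng at 276 and 253 CPM against 16.2 and 16.2 CPM. Lat and Themis take part in T cell receptor signaling, and Lag3 stood at 358 and 279 CPM against 20.3 and 20.2 CPM. Klrh1, a lectin-like receptor, had 164 and 206 CPM against 7.97 and 14.3 CPM, and Nrn1 (neuritin) 239.6 and 172 CPM against 8.0 and 11.1 CPM. Other T cells are part of the rest. The class was cut from T cell RNA, so these ratios describe it and test nothing.

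Members varied widely in effector and chemokine RNA and less in receptors. Per 10000 UMIs of a cell, Pdcd1 had a median of 4.15 (quartiles 1.85 and 6.82, highest 16.2) in UT and 3.43 (quartiles 1.25 and 6.63, highest 23.7) in BUP. Gzmb had a median of 8.25 (quartiles 3.08 and 17.6, highest 334) in UT and 8.7 (quartiles 3.35 and 16.8, highest 211) in BUP. Gzmf ran from a lower quartile of 0 to an upper quartile of 21 in UT and from 0 to 35.6 in BUP, with highest values of 612 and 815. The 10 genes with most variance beyond counting in all members were H2-Aa, Cd74, S100a8, Cxcl3, Gzmg, S100a9, H2-Ab1, Ccl6, Ccl2 and Cxcl1, of which all but Gzmg are myeloid or antigen-presenting cell RNAs. Without members holding other-type RNA they were Gzmg, Ccl3, Gzmc, Def8, Penk, Ifitm3, Ccl4, Gzme, Ly6c1 and Gzmd.

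Most genes of the members differed little between BUP and UT. Of the lists below, 6 had medians under -0.1 in each of 11 alternative settings of the cells and counts. These were costimulatory receptors (-0.33 to -0.23), glycolysis (-0.40 to -0.16), interferon gamma response (-0.42 to -0.14), cytokine receptors (-0.34 to -0.13), DNA replication (-0.39 to -0.13) and MHC class I genes (-0.21 to -0.11). The cytotoxic genes lay near the median of all genes under 1 setting. Of the 5193 genes that reached 200 UMIs in the members of both libraries together, 117 (2.25%) were at least 1.5-fold higher and 106 (2.04%) at least 1.5-fold lower in BUP, and the median log2 ratio was -0.03. Among members without other-type RNA, 3986 genes were measured, of which 43 (1.08%) were at least 1.5-fold higher and 50 (1.25%) at least 1.5-fold lower. Their median log2 ratio was -0.04. These counts describe 2 libraries and are not counts of genes changed by treatment. The all-gene medians give the offset against which the log2 ratios below (BUP over UT) are read. As these medians are negative, most measured genes also had a ratio below 0. Their exact share was not counted, so list counts below 0 have no such share beside them.

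Cytotoxic effector genes lay mostly below 0. Of 16 listed genes, all measured, 15 had a ratio below 0, 4 of them at least 1.5-fold, and 1 was at least 1.5-fold higher, with a median of -0.39. The median was -0.20 without other-type RNA and -0.04 in cells thinned to 2000 UMIs, where deep cells weigh no more than others. Gzmb had a log2 ratio of -0.52 (-0.57 to -0.46), Prf1 of -0.31 (-0.37 to -0.26), Gzmd of -0.52 (-0.57 to -0.46) and Gzmf of -0.04 (-0.08 to -0.0037). Gzma (-2.0, -2.28 to -1.73) and Gzmg (-1.30, -1.40 to -1.20) were among the 12 lowest genes of all, Gzmc stood at -0.83 (-0.93 to -0.74), and Tnfsf10 (TRAIL), a death ligand, at -0.79 (-1.21 to -0.38). The Gzma, Gzmc and Gzmg ratios rested on the few cells described above. Without members that held a Cd4, Foxp3, Trdc or Ncr1 UMI, Gzma, Gzmc and Gzmg stood higher in BUP, at 0.55, 0.62 and 0.18. Without the 5 cells with most UMIs of a gene in each library, Gzmc and Gzmg stood at 0.15 and 0.50. The Gzmb and Gzmd ratios leaned in part on 1 UT member, which held 8.44% and 19.3% of their UT sums. A Gzmb UMI was found in 83.6% of UT and 88.6% of BUP members, and a Gzmd UMI in 39.7% and 44.8%. For Prf1 these shares were 90.5% and 87.7%. Lower Gzmb and Gzmd sums in BUP thus do not show that most BUP members held less. The Gzmb ratio still lay between -0.52 and -0.27 over 11 alternative settings. Gzmk, the granzyme of less cytotoxic memory-like T cells, stood at 57.9 and 87.1 CPM, a ratio of 0.59 (0.31 to 0.87), and of 0.84 (0.53 to 1.16) without other-type RNA. The ratio was 0.13 in thinned cells.

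Of 17 inhibitory receptors 12 were measured, and 10 had a ratio below 0, 1 of them at least 1.5-fold, with a median of -0.18, and of -0.11 without other-type RNA. Lilrb4a, an inhibitory receptor better known from myeloid cells, was the 1 past 1.5-fold, at -0.72 (-0.91 to -0.53). Ctla4 had a ratio of -0.41 (-0.55 to -0.27) and -0.29 (-0.44 to -0.13) without other-type RNA, Lag3 of -0.36 (-0.49 to -0.24), Pdcd1 of -0.19 (-0.30 to -0.08), Tigit of -0.19 (-0.34 to -0.04) and Havcr2 of 0.01 (-0.14 to 0.15). Of 11 measured costimulatory receptors 9 were below 0, 3 at least 1.5-fold, with a median of -0.29. OX40 (Tnfrsf4), a receptor of recently activated T cells, was among the 12 lowest genes at 133 and 59.4 CPM, a ratio of -1.16 (-1.40 to -0.93), and stood at -1.11 (-1.38 to -0.85) without other-type RNA. Its UMIs were spread over many cells, with 16.5% and 14.7% in the top 5, and its ratio ran from -1.23 to -1.08 over 11 alternative settings. The other 2 were the adhesion receptors Cd226, which competes with TIGIT for ligand, at -0.75 (-1.02 to -0.48), and Cd2 at -0.62 (-0.84 to -0.40).

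Cytokine receptors and glycolysis genes were lower in BUP. Of 24 measured genes of IL-2 and gamma chain cytokine receptors and their signaling, 19 were below 0 and 6 at least 1.5-fold lower, with a median of -0.32. Without other-type RNA, 3 of 21 were at least 1.5-fold lower and the median was -0.13. The IL-2 receptor alpha chain (Il2ra) stood at 90.7 and 49.8 CPM, a ratio of -0.87 (-1.14 to -0.59), while its beta chain (Il2rb) stood at -0.13 (-0.20 to -0.06). The IL-12 receptor chains Il12rb1 and Il12rb2 stood at -0.72 (-1.09 to -0.34) and -0.68 (-0.89 to -0.48), the IL-18 receptor chain Il18rap at -0.67 (-0.88 to -0.47) and Il7r at -0.62 (-0.93 to -0.32). Il4ra went from -0.63 to -0.05 without other-type RNA. All 18 measured glycolysis genes were below 0, 1 at least 1.5-fold, with a median of -0.38, and of -0.39 in the 15 measured without other-type RNA. Over 11 alternative settings the median of the list lay between -0.40 and -0.16. Gapdh stood at -0.47 (-0.54 to -0.40) and Ldha, lactate dehydrogenase, at -0.33 (-0.40 to -0.27). Hif1a, the hypoxia factor that drives such genes, stood at 324 and 202 CPM, a ratio of -0.68 (-0.82 to -0.55) and of -0.67 (-0.83 to -0.51) without other-type RNA. Over 11 alternative settings it ran from -0.75 to -0.32, the latter without the C1q and Lyz2 limits. All 14 measured DNA replication genes were below 0 with a median of -0.28, in cells chosen for few cell cycle UMIs.

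Cytokines and chemokines went both ways. Of 12 measured, 7 were above and 5 below 0, with a median of 0.04. Ccl5 was higher in BUP, at 0.41 (0.34 to 0.49) and 0.55 (0.47 to 0.64) without other-type RNA, whereas Ccl3 was lower at -0.76 (-0.87 to -0.65). Ifng stood at -0.12 (-0.26 to 0.01). Areg, the epidermal growth factor family member amphiregulin, stood at 33.6 and 79.1 CPM with a ratio of 1.24 (0.89 to 1.59). Of 11 measured naive and memory genes 8 were below 0 and 3 at least 1.5-fold lower, with a median of -0.36. Among state transcription factors 15 of 24 were below 0 and the median was -0.05. Bach2, also on the naive and memory list, stood at -1.02 (-1.31 to -0.73), Tox at -0.31 (-0.42 to -0.20), Eomes, a factor of memory and exhausted CD8 T cells, at 0.55 (0.23 to 0.88), and Nr4a3, induced by receptor stimulation, at 0.56 (0.30 to 0.84). Of 16 measured migration and residency genes 12 were below 0, with a median of -0.32 that became -0.14 without other-type RNA. Cxcr6 stood at -0.39 (-0.49 to -0.29).

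Signaling, stress and interferon lists lay nearer to 0. T cell receptor signaling genes had 15 of 21 below 0, median -0.12, and immediate early genes 15 of 21 below 0, median -0.12, none of them past 1.5-fold. Heat shock genes (5 of 9 below 0, median -0.03), apoptosis regulators (7 of 12 below 0, median -0.10) and NK receptors with their adaptors (5 of 9 below 0, median -0.08) were near the median of all genes. Type I interferon response genes had 11 of 17 below 0, median -0.16, with 2 at least 1.5-fold lower, Slfn1 at -1.03 (-1.38 to -0.68) and Ly6a at -0.78 (-0.94 to -0.63). Interferon gamma response genes had 18 of 20 below 0, median -0.27, and of -0.14 without other-type RNA. All 13 MHC class I genes were below 0 with a median of -0.15. The reference carries H2 genes of another strain than BALB/c, and these counts may depend on the match. A list median of this size has no error from replicates.

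The 12 genes highest in BUP were mostly RNAs of other cell types in few members. They were Mgp, Slit3, Slpi, Dcn, Pcolce, Tmem176a, Ccn1, Zfpm2, Igfbp6, Tmem176b, Tm4sf1 and Slit2. Mgp (matrix Gla protein) stood at 24.3 and 113 CPM, a ratio of 2.21 (1.83 to 2.61), with 82.3% of its BUP UMIs in 5 cells. Dcn (decorin), a fibroblast proteoglycan, stood at 38.6 and 130.2 CPM in all members and at 7.77 and 13.2 CPM without other-type RNA. Slit3, a secreted guidance factor, had 35.1 and 136 CPM, and 11.9 and 61.3 CPM without. Slpi, a secreted protease inhibitor, had 27.8 and 105 CPM, with 91.3% in 5 cells and no UMI in BUP members without other-type RNA. Tmem176a and Tmem176b, membrane proteins of myeloid cells, went from ratios of 1.49 and 1.08 to -0.09 and -0.67. None of the 12 was present in more than 10.8% of BUP members. The summed fibroblast list had 88 CPM in UT members against 263 CPM in BUP members, and cells without a Ptprc UMI were 24.2% and 42% of the libraries. Their part in these ratios was not tested.

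The 12 lowest genes in BUP mixed T cell and myeloid RNAs. Arg1, Ccl6, Lyz2, Acod1, G0s2, Fabp5 and Ero1a, RNAs of macrophages, neutrophils or hypoxic cells, were among them. Arg1 (arginase) stood at 122 and 31 CPM in all members and at 16.1 and 7.23 CPM without other-type RNA. G0s2 went from a ratio of -0.89 to 1.45 (-0.82 to 4.70) without other-type RNA, where it stood at only 1.04 and 2.83 CPM. That interval spans both directions. The 5 cells with most G0s2 held other-type RNA in each library. Ero1a went from -0.89 to -0.15. Ms4a4a (-1.21, -1.47 to -0.94), Tnfrsf4, Penk (-1.05, -1.22 to -0.88), Gzma and Gzmg had ratios of -1.03, -1.11, -1.0, -2.05 and -1.29 without it. Penk sums leaned on few cells, with 37.9% and 48.8% of UMIs in the top 5.

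Without other-type RNA the 12 highest genes were Slit3, Igfbp6, Lmna, Gadd45b, Slit2, Ypel3, Smad7, Galnt18, Sec62, Slc3a2, Lncpint and Uqcr11. Slc3a2, the heavy chain of amino acid transporters (CD98), had 228 CPM in UT members against 367 CPM in BUP members, a ratio of 0.69 (0.53 to 0.85), and was found in 81.6% of BUP members. Smad7, an inhibitor of TGF-beta signaling, had 73.1 and 122 CPM, a ratio of 0.74 (0.45 to 1.02). Gadd45b, a stress response gene, stood at 0.81 (0.48 to 1.15). The 12 lowest were Cxcl2, Gzma, Ly6a, Gzmg, Tnfrsf4, Cd74, Lyz2, Ms4a4a, Penk, Ccl3, Gzmc and Ifitm1. Lyz2 stood at 190 and 92.1 CPM and Cd74 at 60.6 and 28.3 CPM. The part of other-type RNA under the limit in these values was not tested. Ly6a (Sca-1), a surface protein induced by interferon and activation, stood at 267 and 94.6 CPM, a ratio of -1.50 (-1.71 to -1.29), against -0.78 (-0.94 to -0.63) over all members. Ly6 genes are similar in sequence, so this level is uncertain.

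**Figure D3:**
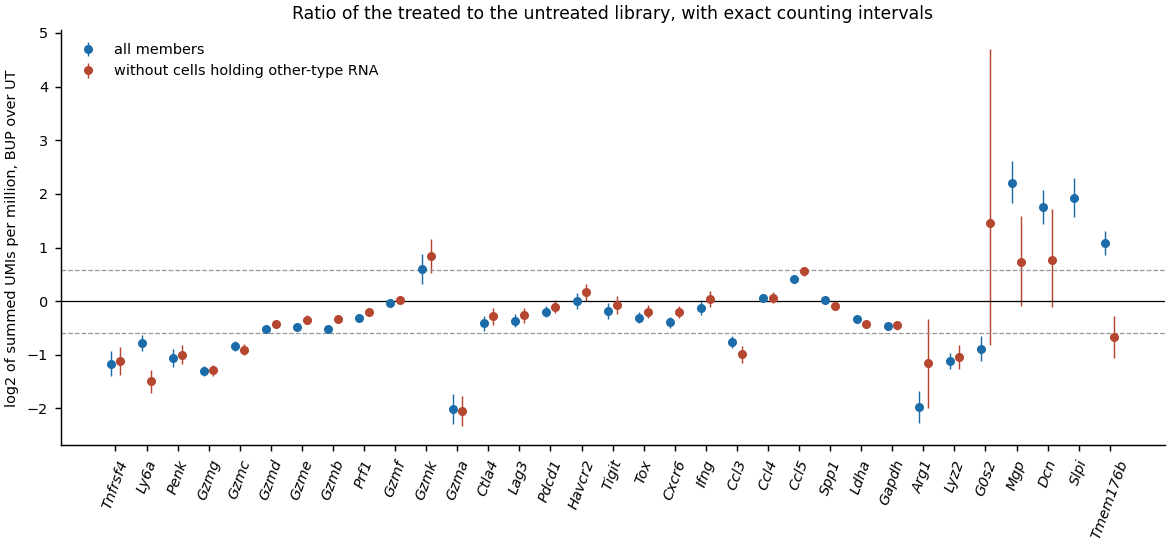
Log2 ratio of BUP over UT (y axis) for 33 genes in all 832 members and in those without other-type RNA, with exact intervals for counting error; dashed lines mark 1.5-fold. Tnfrsf4 (-1.16 and -1.11) and Ccl5 (0.41 and 0.55) lie on the same side in both sets.

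The T cell receptor segment Trbv1 differed more between the libraries than the effector genes named above. It had 1462 UMIs in UT and 129 in BUP members, a log2 ratio of -4.25. A V segment was called for a cell when it held at least 2 UMIs, the most of its chain. The sequences of exon 2 of the beta segments Trbv1 and Trbv13-1, the leading ones of UT and BUP, are given with capitals from the codon of the conserved cysteine that ends the V segment's framework to the end of the exon, where joining begins. The alpha segments Trav3-1 and Trav3-4 are given because they paired most often with Trbv13-1 in BUP and with Trbv1 in UT and differ at few bases, which are in capitals. All are from the GRCm39 annotation and genome and on the plus strand, Trbv1 at chr6:40868525-40868819, Trbv13-1 at chr6:41093109-41093402, Trav3-1 at chr14:52818380-52818670 and Trav3-4 at chr14:54014743-54015033.
Trbv1: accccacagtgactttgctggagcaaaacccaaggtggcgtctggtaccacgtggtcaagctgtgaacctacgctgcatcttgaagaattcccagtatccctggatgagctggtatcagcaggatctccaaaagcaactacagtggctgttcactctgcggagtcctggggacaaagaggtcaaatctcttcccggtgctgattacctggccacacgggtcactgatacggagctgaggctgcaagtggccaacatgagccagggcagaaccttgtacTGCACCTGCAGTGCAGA
Trbv13-1: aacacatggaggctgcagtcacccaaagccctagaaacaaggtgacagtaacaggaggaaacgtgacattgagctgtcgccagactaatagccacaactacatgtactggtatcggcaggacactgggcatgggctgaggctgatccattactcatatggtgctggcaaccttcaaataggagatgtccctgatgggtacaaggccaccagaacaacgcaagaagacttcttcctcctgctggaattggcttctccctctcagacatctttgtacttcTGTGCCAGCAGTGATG
Trav3-1: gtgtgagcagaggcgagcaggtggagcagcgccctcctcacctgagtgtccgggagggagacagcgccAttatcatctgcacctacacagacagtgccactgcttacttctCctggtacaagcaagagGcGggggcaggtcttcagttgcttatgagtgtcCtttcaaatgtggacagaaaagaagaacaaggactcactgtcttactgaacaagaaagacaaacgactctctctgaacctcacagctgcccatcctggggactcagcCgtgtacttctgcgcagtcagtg
Trav3-4: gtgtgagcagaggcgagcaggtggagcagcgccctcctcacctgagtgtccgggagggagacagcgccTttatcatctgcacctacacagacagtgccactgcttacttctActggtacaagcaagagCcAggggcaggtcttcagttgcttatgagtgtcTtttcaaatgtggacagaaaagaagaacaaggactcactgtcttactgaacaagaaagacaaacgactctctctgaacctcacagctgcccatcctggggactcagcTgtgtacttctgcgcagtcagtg

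Counted from 1 at the first base of exon 2, with the Trav3-1 base first, Trav3-4 differs from Trav3-1 by A69T, C112A, G129C, G131A, C162T and C269T, or 6 of 291 bases (97.9% identity). Reads that miss these positions cannot tell the segments apart. Trav7-4 and Trav7d-4 differ at 1 base, and Trav10 and Trav10n at 5. The reference genome is of another strain than the BALB/c mice, so segment names are those of the reference match.

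Trbv1 was the leading beta segment of UT and nearly lacking in BUP. Of 305 UT members 261 had a beta call, and of 527 BUP members 402. Trbv1 was called in 98 of 261 called cells in UT (37.5%, 31.7 to 43.7) and 5 of 402 called cells in BUP (1.24%, 0.405 to 2.88). Cycling CD8 T cells, none of which is a member, showed Trbv1 in 31 of 103 called cells in UT (30.1%, 21.5 to 39.9) and 6 of 184 called cells in BUP (3.26%, 1.21 to 6.96). The intervals of the libraries do not overlap in either class. Trbv31 was called in 33 of 261 called cells in UT (12.6%, 8.87 to 17.3) and 26 of 402 called cells in BUP (6.47%, 4.27 to 9.33).

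BUP was led by Trbv13-1. It was called in 113 of 402 called cells in BUP (28.1%, 23.8 to 32.8) and 17 of 261 called cells in UT (6.51%, 3.84 to 10.2), and in cycling cells in 59 of 184 called cells in BUP (32.1%) and 6 of 103 called cells in UT (5.83%). Trbv2 was called in 61 of 402 called cells in BUP (15.2%, 11.8 to 19.1) and 13 of 261 called cells in UT (4.98%, 2.68 to 8.37), and Trbv29 in 38 of 402 called cells in BUP (9.45%, 6.78 to 12.7) and 10 of 261 called cells in UT (3.83%, 1.85 to 6.93). The identity of Trbv13-1, Trbv13-2 and Trbv13-3 to each other is 86.1 to 91.8%, so calls among them are less certain. A further beta segment with at least 2 UMIs was present in 46 UT and 94 BUP members with a call. Of NK cells, 258 in UT and 217 in BUP, none had a beta call. The 3 tumors of a library were pooled, so the share of each segment per tumor was not measured, and a segment common in 1 tumor cannot be told apart from one of like share in all 3.

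**Figure D4:**
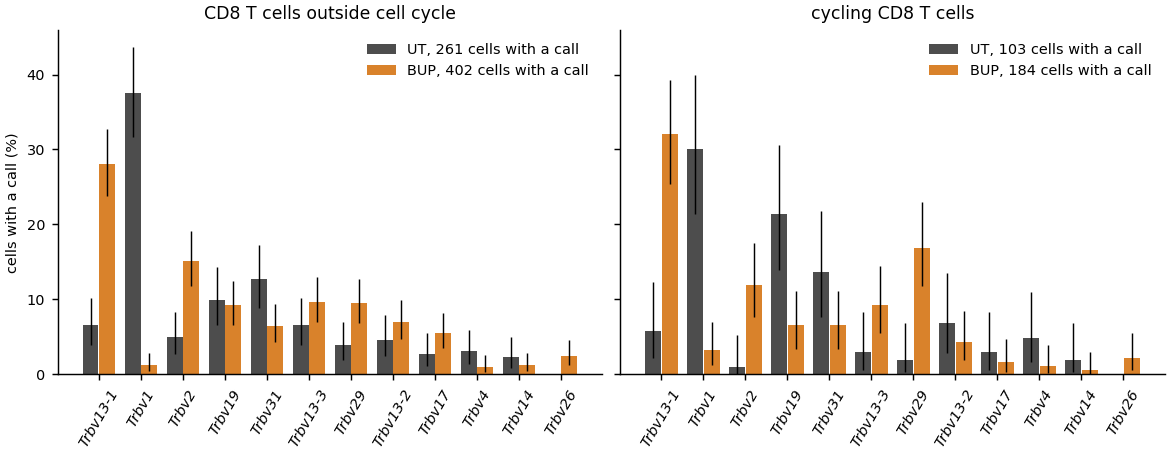
Percent of cells with a beta segment call (y axis) for 12 Trbv segments in CD8 T cells outside cell cycle and in cycling CD8 T cells, per library with exact binomial intervals. Trbv1 stands at 37.5% and 30.1% in UT against 1.24% and 3.26% in BUP, and Trbv13-1 at 28.1% and 32.1% in BUP against 6.51% and 5.83% in UT.

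Alpha segments followed the beta segments. An alpha call was made for 217 UT and 334 BUP members. Trav3-4 was called in 54 of 217 called cells in UT (24.9%, 19.3 to 31.2) and 5 of 334 called cells in BUP (1.5%, 0.488 to 3.46), and Trav3-1 in 68 of 334 called cells in BUP (20.4%, 16.2 to 25.1) and 11 of 217 called cells in UT (5.07%, 2.56 to 8.89). Trav21-dv12, called in 69 of 334 called cells in BUP (20.7%) and 13 of 217 called cells in UT (5.99%), was as common as Trav3-1 in BUP. In UT, Trav3-4 was paired with Trbv1 in 47 of 82 cells that had Trbv1 and an alpha call, and Trav7-4 in 24 of 82. In BUP, Trbv13-1 was paired with Trav3-1 in 66 of 81 cells, Trbv13-3 with Trav21-dv12 in 31 of 33, Trbv29 with Trav3-3 in 31 of 33 and Trbv2 with Trav10 in 22 of 36. Cells of a pair share V segments, which does not show that they are a clone, since the junctions were not measured.

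Cells that shared a beta segment differed from other cells in granzymes and less in Pdcd1. Among 3 UT and 8 BUP groups of at least 20 thinned cells, Pdcd1 lay between 333 and 561 CPM. Gzmf ran from 1385 CPM in UT Trbv19 cells to 11525 CPM in BUP Trbv17 cells, of which 1 cell held 37.3%. In BUP it was 6870.4 CPM in Trbv13-2 cells, 2305 CPM in Trbv13-1 cells and 1850 CPM in Trbv2 cells. A Havcr2 UMI was found in 21 of 37 cells (56.8%, 39.5 to 72.9) of BUP with Trbv19 and in 3 of 26 cells (11.5%, 2.45 to 30.2) of UT with Trbv19. Ly6a was found in 40 of 97 cells (41.2%, 31.3 to 51.7) with Trbv1 and 11 of 33 cells (33.3%, 18 to 51.8) with Trbv31 in UT, and in at most 15.8% of each other group. Cells of 1 segment can stem from 1 clone or tumor and are not replicates.

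**Figure D5:**
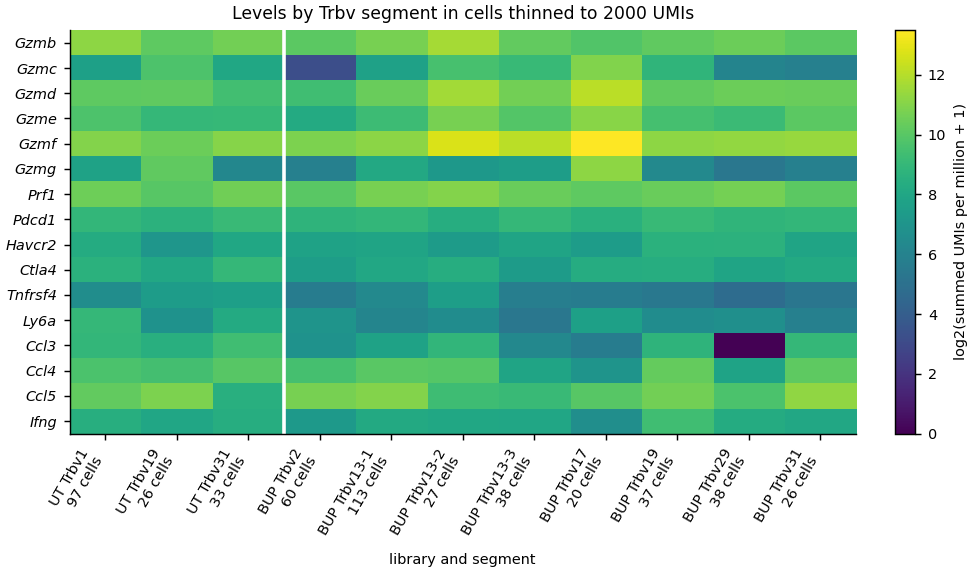
Heatmap of log2(CPM + 1) for 16 genes (rows) in thinned members grouped by called beta segment and library (columns, 3 in UT and 8 in BUP). Pdcd1 varies less between columns (333 to 561 CPM), while Gzmf runs from 1385 to 11525 CPM.

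Trbv1 cells were common in UT only. Ratios of BUP over UT were therefore also taken among cells with another beta call, 163 in UT and 397 in BUP. This set of other called cells leaves out the Trbv1 cells and also the 44 UT and 125 BUP members with no beta call. Ccl5 stood at 1156 CPM in Trbv1 cells, 539 CPM in other called UT cells and 1087 CPM in other called BUP cells. Within UT the Trbv1 cells were thus higher than other called cells by 1.10 (0.96 to 1.24) on the log2 scale. The ratio of BUP over UT among other called cells was 1.01 (0.90 to 1.12). Ly6a had 369.8 CPM in Trbv1 cells, 214 CPM in other called UT cells and 141 CPM in other called BUP cells. Il2ra had 143 CPM in Trbv1 cells, 78 CPM in other called UT cells and 51.2 CPM in other called BUP cells. Ccl3 had 822 CPM in Trbv1 cells, 295 CPM in other called UT cells and 327 CPM in other called BUP cells. A single Trbv1 cell held 216 of the 1269 Ccl3 UMIs of all UT members, so the level of Trbv1 cells leaned on that cell. Among other called cells the Ccl3 ratio of BUP over UT was 0.15 (-0.01 to 0.31). Gzmf had 2472 CPM in Trbv1 cells, 3726 CPM in other called UT cells and 3455 CPM in other called BUP cells. Lag3 and Ctla4 were higher in the Trbv1 cells than in other called cells of UT, by 0.59 (0.38 to 0.79) and 0.42 (0.19 to 0.65). Among other called cells the ratios of BUP over UT were -0.10 (-0.25 to 0.06) and -0.29 (-0.46 to -0.11). The 11 alternative settings of all members include leaving out only the Trbv1 cells. Over these settings the highest ratios were 0.66 for Ccl5, -0.03 for Ccl3, -0.18 for Lag3 and -0.28 for Ctla4. For Tnfrsf4 the ratio of Trbv1 cells over other called cells of UT was 0.02 (-0.33 to 0.36). Its ratio of BUP over UT among other called cells was -1.18 (-1.46 to -0.91). Hif1a, Gapdh and Bach2 were also lower in BUP among other called cells, at -0.69 (-0.86 to -0.52), -0.39 (-0.47 to -0.30) and -0.92 (-1.27 to -0.56).

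Most cholinergic and adrenergic receptors, and most voltage-gated sodium channels, which bupivacaine blocks, had no UMI in the members. BUP-Gel was given in the study to act on cholinergic nerves, which release acetylcholine. Of 29 listed cholinergic and adrenergic genes, 18 had no UMI in any member and none reached 200 UMIs. Besides receptors, the 18 include the listed enzymes and transporters of acetylcholine and choline, none of which had a UMI. The list had 87 UMIs in UT and 129 in BUP, most of them of 1 gene. The beta-1 adrenergic receptor (Adrb1) had 56 UMIs in UT and 73 in BUP and the nicotinic subunit Chrnb1 7 UMIs in UT and 17 in BUP. Adrb1 UMIs were found in 41 of 305 UT and 58 of 527 BUP members, a level of 21.6 and 16.7 CPM against 0 and 0.0645 CPM in cells without a Ptprc UMI. The muscarinic receptor Chrm3 had 1 UMI in each library, and Chrm5 and Chrna7 had none, which allows shares of cells with a UMI of up to 0.984% of UT and 0.569% of BUP members. Of 13 voltage-gated sodium channel genes 9 had no UMI, and the list had 85 UMIs in UT and 142 in BUP. A UMI not found limits RNA in these libraries and says nothing of protein.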

How the data were processed

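Single-cell RNA was measured in 1 library of UT and 1 library of BUP-Gel-treated CT26 tumors, each from 3 pooled tumors. The authors aligned reads to GRCm39 with Cell Ranger 8.0.1 (file header), and the deposited values are whole UMI counts per gene and barcode, not normalized. The submitters' processing notes also name Seurat 5.0.1. The study's methods give CD45+ and CD45- cells at 3 parts to 1 and the labels at 4 parts to 1. Reads were not used here.

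Members, classes and sums were computed with pandas 2.3.3, scipy 1.17.1 and numpy 2.4.6 (Python 3.11.15), V segment sequences with pysam 0.24.0 and biopython 1.88 from GRCm39, doublet scores with Scrublet in scanpy 1.11.5, and figures with matplotlib 3.10.9. Barcodes with under 20% mitochondrial UMIs were kept, and doublets were not removed in the main analysis. Counts were summed over cells per library, and log2 ratios have exact 95% intervals that treat each gene's total over both libraries as fixed. Shares carry exact binomial (Clopper-Pearson) intervals, and a count of 0 was taken to allow 3 counts. All cover counting error only, at 2591936 UMIs in 305 UT members and 4361483 UMIs in 527 BUP members. With 1 library per group no test was made. The calculations were tested on simulated data.

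Genes were measured with at least 200 UMIs over both libraries. Named genes were the 12 highest and 12 lowest ratios of BUP over UT among measured genes at 100 CPM or more in 1 library, V, D, J and C segments left out. They also included the 12 at each end against cycling CD8 T cells and NK cells, the 15 highest over other kept cells, the 10 most variable and the list genes. The members and lists were chosen with earlier results of these data known. Listed names H2-L, Tcrg-C1, Tcrg-C2, Tcrg-C4 and Cd163l1 matched no row, and for Aldoa, listed more than once, the first row was used. Alternatives changed the gate, the cells, the depth and the scaling. Those without cells of other-type RNA and without Trbv1 cells were chosen after seeing the data. Values of some listed genes are not reported here.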

Additional observations from a re-analysis of the deposited data

Results flagged for a closer look

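The results below went in opposite directions in the members and in another lymphocyte class of the same libraries. Values are log2 ratios of BUP over UT in that other class, the direction in the members is opposite, and no difference between classes was tested. In cycling CD8 T cells Arg1 stood at 1.93, Ccl6 at 1.53, Ccl9 at 1.20, Gzmg at 0.84 and Lilrb4a at 0.62, all lower in BUP in the members. Slit2 stood at -0.64 and Tm4sf1 at -0.83 there, both higher in BUP in the members. In NK cells the genes that were lower in BUP in the members stood at 2.66 for Arg1, 1.32 for Ccl6, 0.66 for Fabp5 and 1.33 for G0s2. Those that were higher in the members stood at -0.83 for Ccn1, -1.27 for Slit2, -1.12 for Slit3 and -1.79 for Zfpm2. In T cells without a CD8 UMI, Areg stood at -1.87 against a higher level in BUP members, while Ccl3 stood at 1.55, Ccr1 at 0.82 and G0s2 at 0.65 against lower levels in BUP members. Arg1, Ccl6, Ccl9 and G0s2 are myeloid RNAs and Slit2, Slit3, Tm4sf1 and Ccn1 stromal or tumor RNAs. The share of members at or over the limit for RNA of other types was 24.3% in UT and 15.6% in BUP. The part of such RNA in these ratios was not tested.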

How the results depend on the processing

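No paired analysis was possible because each group has 1 library, and no replicate could be left out. Of 304 named gene ratios, 52 were past 1.5-fold, and 51 of these remained so under the stricter cell filter (at least 1000 UMIs, 500 genes and under 10% mitochondrial UMIs), 51 under median-ratio scaling, 50 with at least 3 Cd3 and 2 Cd8 UMIs, 46 with cell cycle UMIs under 5 per 10000, 45 without cells holding a Cd4, Foxp3, Trdc or Ncr1 UMI, 44 without Trbv1 cells, 44 without the 5 cells with most UMIs of the gene and 41 in cells thinned to 2000 UMIs. Fewer remained past it without the highest doublet scores (34), without other-type RNA (37 of 51) and without the C1q and Lyz2 limits (27). As a difference of mean log-normalized values, 1 was past 1.5-fold. There 1 is added to the UMIs per 10000 of each cell before the log. This shrinks differences of genes at low levels, so the limit is not of the same measure as for summed counts. Reversed ratios were few, and the cause was not tested. Without the C1q and Lyz2 limits Acod1 was 0.020, G0s2 0.53, Lmna -0.027 and Slc16a3 0.20. With cell cycle UMIs under 5 per 10000 Gzmc was 0.24 and Gzmg 0.19. Without cells holding a Cd4, Foxp3, Trdc or Ncr1 UMI Gzma was 0.55, Gzmc 0.62 and Gzmg 0.18. Without the highest 6% of doublet scores Igfbp6 was -0.088. Without other-type RNA Ccl9 was 1.04, G0s2 1.45 (-0.82 to 4.70, on few UMIs), Tmem176a -0.093 and Tmem176b -0.67. In thinned cells Gzmc was 0.092, without the 5 cells with most UMIs of the gene Gzmc was 0.15 and Gzmg 0.50, and as a difference of mean log-normalized values Gzmc was 0.0025 and Gzmg 0.053.

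The counts of genes at least 1.5-fold higher and lower in BUP were 45 and 59 without high doublet scores, 43 and 50 without other-type RNA, 14 and 30 in thinned cells, 535 and 406 at a minimum of 50 UMIs, and 6 and 18 at 1000 UMIs. Without the 5 top cells 192 genes were higher. The median of the cytotoxic list was -0.19 with cell cycle UMIs under 5, -0.17 without high doublet scores, -0.036 in thinned cells and -0.17 without the 5 top cells. Gzmk was 0.13 in thinned cells. The members' share of gated T cells was 49.9% in UT with cell cycle UMIs under 5, and 64.9% in UT and 66.2% in BUP without cells of Cd4, Foxp3, Trdc or Ncr1. It was 4.26% and 7.78% of all kept cells and 5.61% and 13.1% of cells with Ptprc. Cells with Havcr2 and no Tcf7 were 57.4% in UT and 63.0% in BUP unthinned, and 50.4% and 52.1% at 4000 UMIs. Depth limits all shares of cells with a UMI, and 1 library per group limits every comparison of BUP with UT.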
